A study of Mus musculus with 20 samples.

Results

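The collagen genes are the genes that encode the chains of the collagen family, taken here as every gene whose symbol is Col, a number, a and a number. There are 44 of them among the 38414 genes listed in at least 1 of the 4 deposited expression tables, and all 44 are listed in each table. By textbook class they are 11 fibrillar collagens, 9 basement membrane collagens, 9 fibril-associated collagens (FACIT), 6 beaded filament collagens, 4 membrane collagens, 3 short-chain collagens and 2 others.

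Collagen chains assemble in groups into a triple helix inside the endoplasmic reticulum and are secreted. Fibrillar collagens pack into the fibrils of bone, skin, tendon and cartilage, FACIT collagens sit on the surface of such fibrils, and type IV collagen forms the sheet-like network of the basement membrane under epithelia and around blood vessels. In the embryonic brain the known sources are the meninges, the vessel wall and, for some members, the neuroepithelium, and the receptor Adgrg1 on neural progenitors binds type III collagen.

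The libraries come from MAPIT-seq on OCT-embedded sections of wild-type C57BL/6J mice, an assay in which an antibody brings the fusion rAPOBEC1-pAG-hADAR2 to a protein. Nearby RNA is then marked by C-to-T changes from rAPOBEC1 and A-to-G changes from the hADAR2 part. The 20 libraries form 10 groups of 2. The E10.5 fixed embryo and the E10.5 fresh-frozen embryo each have an Anti-G3BP1 group, an IgG group and an untreated group, and E12.5 brain and E16.5 brain each have an Anti-G3BP1 group and an IgG group. G3BP1 is a stress granule RNA-binding protein. The IgG groups had rabbit IgG in place of that antibody, and both kinds of antibody group had a guinea pig anti-rabbit secondary antibody, the fusion and 0.2% formaldehyde. The untreated groups are labelled with no fixation, although the titles of those of the fixed embryo call them fixed. The labels do not say that the 2 libraries of a group come from separate animals, so all p-values below reflect only how far these samples differ, and that spread may be technical.

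The tissue labels were set against markers of other cell types before the results. In the libraries labelled fresh-frozen embryo, the summed level of 5 heart muscle markers was 8.89 to 34.2 TPM (a level scaled to transcript length and to the total of the library), against 2181 to 3622 TPM in the fixed embryo of the same stage. The summed level of 4 fetal liver markers was 4.94 to 11.1 TPM against 425 to 959 TPM, and that of 6 surface epithelium markers 1.24 to 6.14 TPM against 395 to 486 TPM. The 6 neuron markers summed to 4359 to 7030 TPM in the fresh-frozen libraries and to 676 to 1410 TPM in the fixed ones, while E16.5 brain had 5963 to 6035 TPM. RNA of heart, liver and surface epithelium is therefore near absent from the libraries labelled fresh-frozen embryo, which goes against a whole-embryo label. TPM holds no depth. Reads covering collagen editing sites were 9348 to 62563 per library in the fixed embryo and 4303 to 10707 in the libraries labelled fresh-frozen. They were 5770 to 20960 in E12.5 brain and 31270 to 58753 in E16.5 brain. The lowest figure of the fixed embryo belongs to the second untreated library, and that of E12.5 brain to the first IgG library. These reads also vary with collagen level and number of sites, so they do not compare depth between tables.

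Summed over the 44 genes, collagen RNA averaged 1656 ± 83.6 TPM in the fixed E10.5 embryo (SD, n = 6), 567 ± 31.2 TPM in the E10.5 libraries labelled fresh-frozen (n = 6), 1009 ± 17.8 TPM at E12.5 in brain (n = 4) and 659 ± 48.7 TPM at E16.5 in brain (n = 4). The ranges over libraries, 1540 to 1747, 537 to 616, 987 to 1031 and 606 to 714 TPM, leave a gap between the fixed embryo and E12.5 brain and between E12.5 brain and both others. The ranges of the fresh-frozen libraries and of E16.5 brain overlap. Each table was deposited separately, so levels set across tables are descriptions. In bulk RNA, fewer cells of a type and less RNA per cell cannot be told apart.

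A few genes carried most of this RNA. The 8 highest members held 81.7% of collagen TPM in the fixed embryo, 69.0% for the libraries labelled fresh-frozen, and 74.7% and 68.0% in brain at E12.5 and E16.5. In the fixed embryo 6 members averaged 100 TPM or more, and the highest of them ranked 386 among the genes of its table. In E12.5 brain 1 member did. In the other 2 tables no member reached that level, and the highest ranked 2783 in the fresh-frozen libraries and 2458 in E16.5 brain. At the other end, 8, 3, 9 and 6 members stayed under 1 TPM in every library of the 4 tables in that order. Col4a3, a chain of the kidney glomerulus network, and Col10a1, the collagen of hypertrophic cartilage, did so in all 4 tables, and Col10a1 was listed at 0 TPM in all 4 E12.5 libraries.

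**Figure D1:**
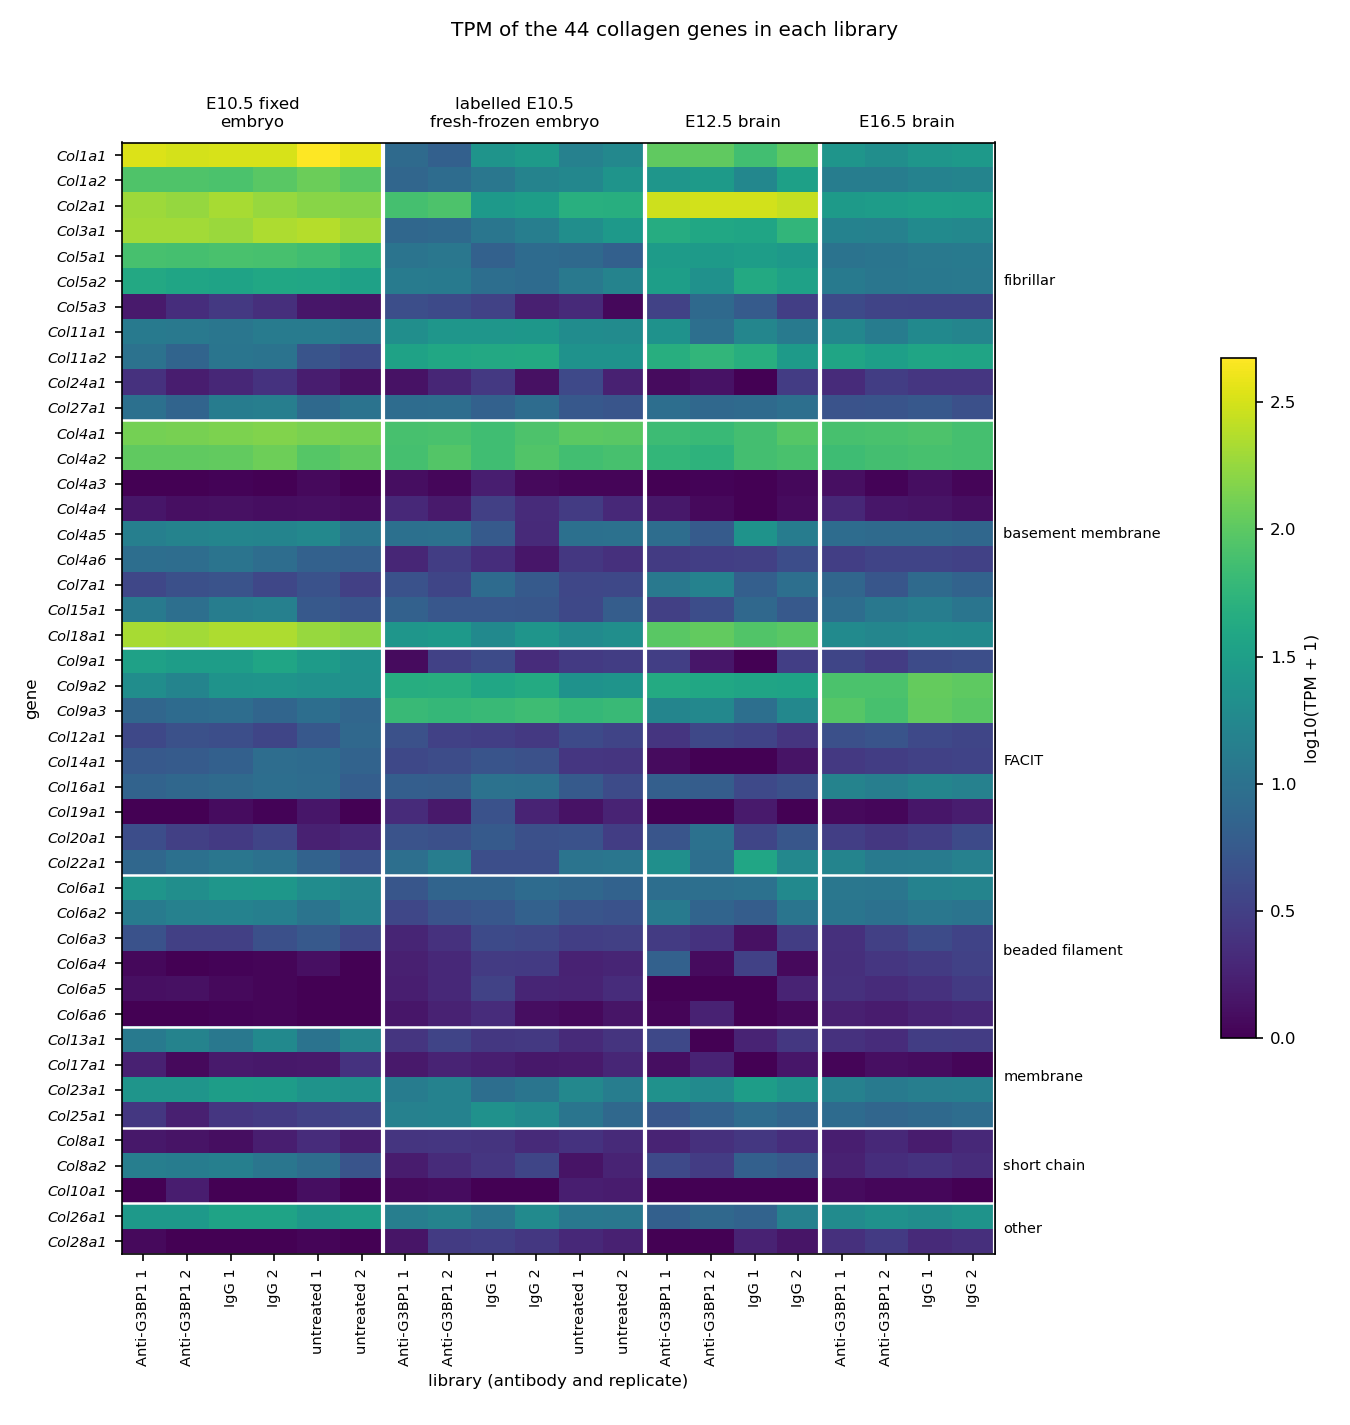
Heat map of the 44 collagen genes (rows, grouped by class) in the 20 libraries (columns, by table and group), coloured by log10(TPM + 1). Col1a1 has the highest mean in the fixed embryo and Col2a1 in E12.5 brain, while Col9a2, Col9a3, Col4a1 and Col4a2 lead in E16.5 brain.

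The make-up by class differed between the tables. Fibrillar collagens held 59.1 ± 2.95% of collagen TPM in the fixed embryo, 31.2 ± 1.30% in the libraries labelled fresh-frozen, 58.6 ± 2.64% in E12.5 brain, and E16.5 brain had 24.7 ± 0.452% (SD over libraries, n = 6, 6, 4 and 4). FACIT collagens held 5.08 ± 0.290%, 22.1 ± 1.91%, 8.46 ± 0.628% and 34.0 ± 1.64% in the same order. Basement membrane collagens held 28.7 ± 2.08%, 35.9 ± 2.26%, 26.4 ± 1.95% and 30.0 ± 1.64%. The fibrillar share was thus high in the fixed embryo and E12.5 brain, and the FACIT share was high in the fresh-frozen libraries and E16.5 brain.

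Among fibrillar members, Col1a1, a chain of the type I collagen of bone, skin and tendon, was the highest collagen of the fixed embryo, with 343 and 316 TPM in the Anti-G3BP1 libraries, 321 and 327 TPM in the IgG libraries and 471 and 386 TPM in the untreated libraries. Its partner chain Col1a2 had 85.1 and 85.4, 81.9 and 96.1, and 118 and 96.4 TPM in the same groups. Both untreated libraries were highest for Col1a1. In the libraries labelled fresh-frozen the 2 genes were far lower, at 5.60 to 27.5 TPM for Col1a1 and 6.64 to 23.1 TPM for Col1a2. Col3a1, the soft-tissue and vessel wall fibrillar collagen, averaged 206 ± 18.2 TPM in the fixed embryo and spanned 6.76 to 26.0 TPM over the fresh-frozen libraries. Beside them, the fibroblast and mesenchyme markers, 8 genes, summed to 524 to 622 TPM in the fixed embryo, 19.9 to 48.8 TPM in the fresh-frozen libraries, 27.8 to 51.9 TPM in E12.5 brain and 28.2 to 38.3 TPM in E16.5 brain. The part of such cells in the collagen values was not tested.

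Col2a1, the main collagen of cartilage fibrils, was the highest member in E12.5 brain, at 295 and 307 TPM in the Anti-G3BP1 libraries and 310 and 271 TPM in the IgG libraries. It averaged 179 ± 20.4 TPM in the fixed embryo. Of the cartilage markers measured with it, Acan, the cartilage proteoglycan, was at 2.87 TPM or less in every library of the 4 tables and Matn1, a cartilage matrilin, was at 0 in all E12.5 libraries, while Sox9, a factor of cartilage and of neural progenitors that is known to drive Col2a1, stood at 105, 91.7, 117 and 121 TPM in the E12.5 libraries. The summed level of the cartilage list was 98.0 to 127 TPM in E12.5 brain, and most of it was Sox9.

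Among basement membrane members, Col4a1 and Col4a2, the paired chains found in nearly every basement membrane, were in the top 8 of all 4 tables. Col4a1 averaged 135 ± 7.05 TPM in the fixed embryo, 84.4 ± 11.3 TPM in the fresh-frozen libraries, 74.1 ± 12.3 TPM in E12.5 brain, and E16.5 brain had 79.2 ± 3.70 TPM. Col4a2 averaged 106 ± 8.59, 78.8 ± 7.72, 66.1 ± 12.6 and 74.1 ± 4.12 TPM. The values of the last 3 tables overlap for both genes. Col18a1, the basement membrane collagen that releases endostatin, behaved otherwise. It averaged 200 ± 24.5 TPM in the fixed embryo, 21.8 ± 3.91 TPM in the fresh-frozen libraries, 97.4 ± 8.18 TPM in E12.5 brain, and E16.5 brain had 17.4 ± 0.993 TPM.

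Among FACIT members, Col9a2 and Col9a3, chains of the type IX collagen that covers cartilage fibrils, were the 2 highest collagens of E16.5 brain. Col9a3 averaged 7.26 ± 0.766 TPM in the fixed embryo, 63.6 ± 3.53 TPM in the fresh-frozen libraries, 14.3 ± 3.87 TPM in E12.5 brain, and E16.5 brain had 92.9 ± 12.3 TPM. The other chain of type IX collagen, Col9a1, was above Col9a3 in the fixed embryo, at 22.1 to 36.7 TPM, and was under 4 TPM in all libraries of the other 3 tables.

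Ratios between chains of 1 collagen type, within a library, do not depend on how the table was scaled. The ratio of Col4a1 to Col4a2 stayed between 0.882 and 1.47 in all 20 libraries, with medians of 1.25 for the fixed embryo, 1.01 for the fresh-frozen libraries, 1.15 for E12.5 brain and 1.07 for E16.5 brain. The ratio of Col9a1 to Col9a3 had medians of 3.84, 0.0312, 0.0782 and 0.0289 in the same order, and its range in the fixed embryo, 3.35 to 5.64, lay above all other libraries. The ratio of Col1a1 to Col1a2 had medians of 3.95, 0.987, 4.03 and 1.71. It was 3.19 or more in every library of the fixed embryo and E12.5 brain and 2.21 or less in every library of the others. The other type IV pair with both chains above 1 TPM in most libraries, Col4a5 over Col4a6, had medians of 1.802, 4.73, 3.94 and 2.92 and ranged from 1.60 in a fixed library to 10.3 in the first IgG library of E12.5 brain. Of these 4 pairs, Col4a1 with Col4a2 spanned the smallest range.

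**Figure D2:**
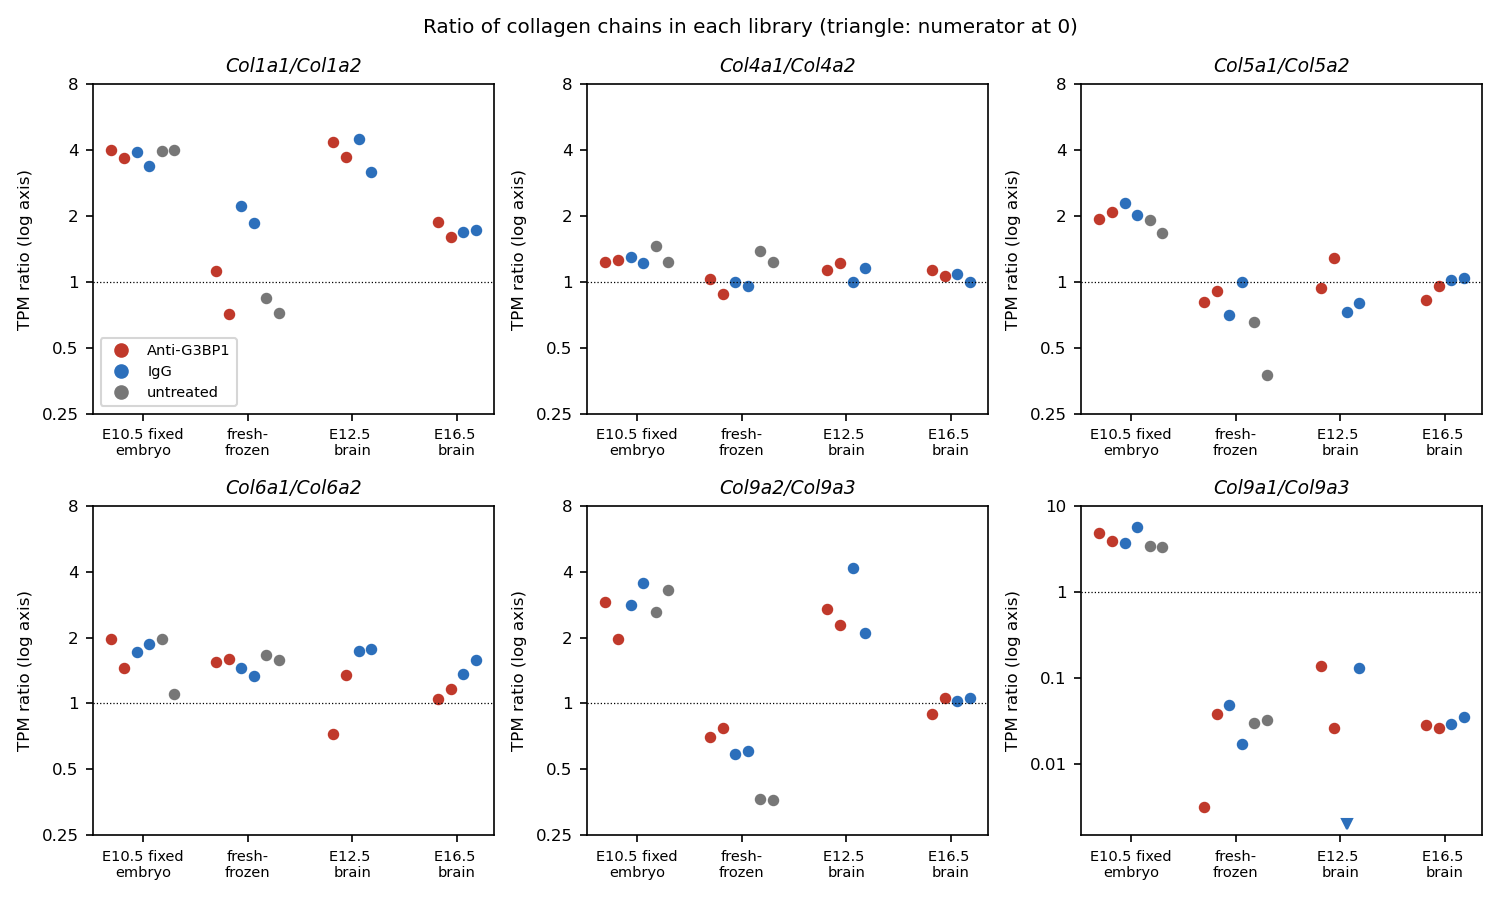
Ratio of TPM between 2 chains of 1 collagen type in each library (points, log axis, columns by table), for 6 pairs; a triangle marks a ratio of 0, and the last panel has its own wider axis. Col4a1 over Col4a2 stays within 0.882 to 1.47, whereas Col9a1 over Col9a3 lies at 3.35 to 5.64 in the fixed embryo and at 0.140 or less elsewhere.

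Col4a1 and Col4a2 are neighbours on mouse chromosome 8 (GRCm38), with Col4a1 at 11198423 to 11312826 on the minus strand and Col4a2 at 11312805 to 11449287 on the plus strand, so their annotated starts overlap by 22 bases head to head. The other pairs of type IV genes, Col4a4 with Col4a3 and Col4a6 with Col4a5, also lie head to head, with 71 and 1308 bases between them. The window around the start of Col4a2, 250 bases before it and 50 after it, is shown because the starts of these 2 genes, whose ratio stayed close to 1, share it. It comes from RefSeq (GRCm38.p6, plus strand, chr8:11312555-11312854), and its last 78 bases are also the end of the Col4a1 window. Capitals mark CCAAT and GGGCGG on either strand.
Col4a2 start window: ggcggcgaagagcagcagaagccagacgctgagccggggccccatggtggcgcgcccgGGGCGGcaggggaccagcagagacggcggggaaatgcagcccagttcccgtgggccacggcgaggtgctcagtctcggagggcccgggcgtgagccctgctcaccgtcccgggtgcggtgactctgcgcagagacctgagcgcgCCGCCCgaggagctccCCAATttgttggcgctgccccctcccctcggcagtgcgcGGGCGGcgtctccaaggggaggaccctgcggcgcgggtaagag
It holds 1 CCAAT and 3 GGGCGG over both strands, which do not overlap, and no TATAAA. Of 32851 RefSeq windows of the same length, 37.4% hold CCAAT, 35.7% hold GGGCGG and 13.6% hold TATAAA on either strand. Of the 38 windows that matched 35 collagen genes, 13, 23 and 5 do.

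The design offers a comparison of the 2 brain stages, and in it 18 of the 38 collagen genes tested changed. At an adjusted p under 0.05 (limma on log2(TPM + 1), Benjamini-Hochberg over all genes, two-sided), 8 members were higher in E16.5 brain, or 21.1% of those tested, where 32.3% of all 20162 genes were. Another 10 members were lower, or 26.3%, where 17.7% of all genes were. The median change of the tested members was 0.12 on the log2 scale, against 0.17 over all genes. The other 6 collagen genes did not reach 1 TPM in 2 libraries. Levels given here are deposited TPM, and changes are on the log2(TPM + 1) scale after rescaling over the genes of both tables. Stage and table coincide, and differences between stages and between tables cannot be told apart.

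Every fibrillar collagen that changed was lower in E16.5 brain. That was the case for 7 of 11 tested, where 17.7% of all genes were lower, and the class median was -0.84. Col2a1 had 27.7 and 28.7 TPM (Anti-G3BP1) and 31.4 and 30.4 TPM (IgG) in E16.5 brain, against the 271 to 310 TPM of E12.5 brain. This is a log2 change of -3.28 ± 0.08 (SE; adjusted p = 1.6e-07), the smallest p among the members. Col1a1 had 23.8, 20.1, 24.4 and 26.3 TPM in E16.5 brain, against 105, 104, 72.1 and 102 TPM in E12.5 brain, a change of -1.96 ± 0.15 (adjusted p = 1.2e-05). Neither gene's stages overlapped. Col3a1 averaged 15.7 ± 1.96 TPM in E16.5 brain and 43.7 ± 8.87 TPM in E12.5 brain (SD, n = 4 each). Col5a1 and Col5a2, chains of the type V collagen that sets fibril width, averaged 10.47 against 28.0 TPM and 10.9 against 31.4 TPM. Col1a2, at 13.7 ± 1.35 against 24.98 ± 6.72 TPM, and Col27a1, a fibrillar collagen of cartilage at 3.94 against 7.81 TPM, had smaller changes of -0.78 ± 0.21 and -0.84 ± 0.18. The type XI chains Col11a1 and Col11a2, the core of cartilage fibrils, did not pass the test, with changes of 0.14 ± 0.27 and -0.29 ± 0.19.

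Among the FACIT collagens 4 of 8 tested were higher in E16.5 brain, where 32.3% of all genes were. None was called lower, and the class median was 1.12 over called and uncalled members. Col9a3 had 91.8, 76.8, 106 and 96.6 TPM in E16.5 brain, against 15.42, 16.71, 8.562 and 16.501 TPM in E12.5 brain, a change of 2.65 ± 0.21 (adjusted p = 1.7e-05). Col9a2 had 82.4, 81.0, 109 and 102 TPM against 41.7, 38.2, 35.7 and 34.5 TPM, a change of 1.29 ± 0.12 (adjusted p = 4.4e-05). All E16.5 libraries lay above all E12.5 libraries for both genes. Col16a1, a FACIT collagen of skin and other tissues, averaged 14.3 ± 0.983 against 4.27 ± 1.27 TPM, and Col14a1, which binds fibril surfaces, averaged 2.13 against 0.149 TPM, with 2 E12.5 libraries listed at 0. Their changes were 1.57 ± 0.20 and 1.45 ± 0.26. The third type IX chain, Col9a1, had 2.61, 2.01, 3.12 and 3.43 TPM against 2.16, 0.438, 0 and 2.15 TPM. Its groups overlapped and it did not pass the test (0.95 ± 0.42, adjusted p = 0.0925).

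Among the basement membrane collagens 1 of 7 tested was higher and 1 lower, with a median of 0.02. Col18a1 had 18.21, 15.95, 17.87 and 17.42 TPM in E16.5 brain, against 97.4, 107, 87.3 and 97.4 TPM in E12.5 brain, a change of -2.42 ± 0.10 (adjusted p = 8.5e-07). Col15a1, its close relative and a collagen of vessel and muscle basement membranes, was higher instead. It averaged 10.3 ± 1.95 against 4.29 ± 2.08 TPM, a change of 1.17 ± 0.24 (adjusted p = 0.0035). Col4a1 and Col4a2 did not pass the test, with changes of 0.11 ± 0.11 and 0.18 ± 0.10, and the stages overlapped for both. The levels of endothelial and pericyte markers differed between the stages. Of 8 endothelial markers 5 were higher in E16.5 brain and none lower, and their sums were 315 to 356 TPM against 107 to 144 TPM. Of 8 pericyte markers 6 were higher and none lower. Beside these counts of collagens and markers, 32.3% of all genes were higher and 17.7% lower. The part of vessel cells in the collagen values was not tested.

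Outside these classes, Col26a1, a collagen with an EMI domain, was higher at 20.6 ± 1.88 against 8.19 ± 4.01 TPM (1.31 ± 0.25). Col23a1, a membrane collagen, was lower at 12.9 ± 0.988 against 22.9 ± 4.75 TPM (-0.76 ± 0.16), and Col8a2, a short-chain collagen of the corneal Descemet membrane, was lower at 1.17 against 3.77 TPM (-1.08 ± 0.26). Col6a5, a beaded filament collagen, and Col28a1, a collagen of peripheral nerve, were higher with levels of 1.16 to 1.85 and 1.07 to 1.83 TPM in E16.5 brain, against 0 to 0.867 and 0 to 0.791 TPM in E12.5 brain. The call of Col28a1 is the weakest of the 18, with an adjusted p of 0.0304. It was lost without either E16.5 Anti-G3BP1 library (replicates 1 and 2), without the second E16.5 IgG library and without either E12.5 Anti-G3BP1 library, where its adjusted p reached 0.104. None of the 18 called genes overlapped between the stages, but they were picked by a test on the same libraries, so this adds nothing to the calls.

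**Figure D3:**
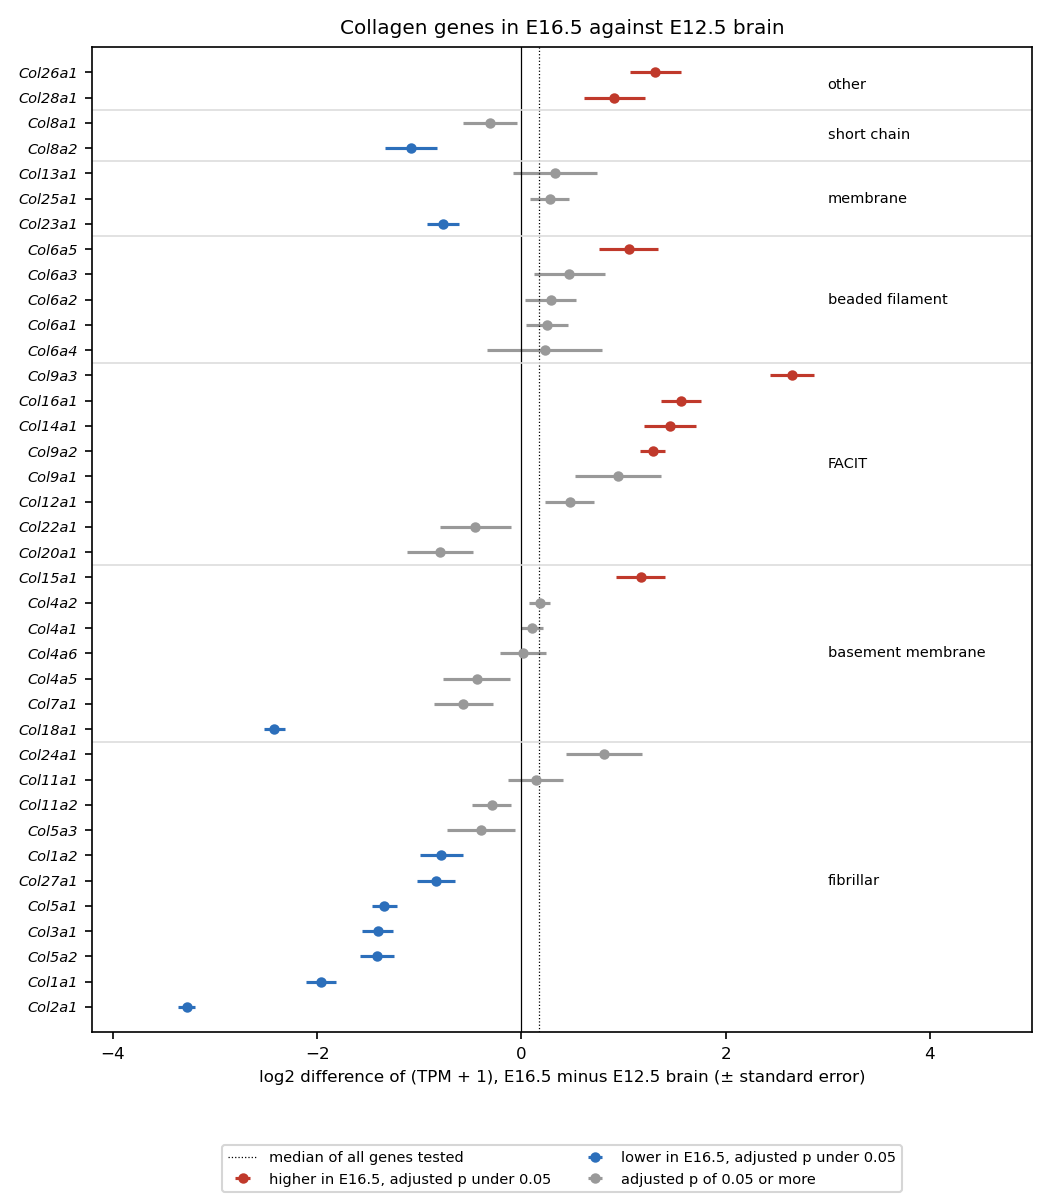
Log2 change of TPM, E16.5 brain over E12.5 brain, with SE bars for the 38 tested collagen genes by class; colour gives the call at an adjusted p under 0.05 and the dotted line is the median of all 20162 genes, 0.17. The 7 called fibrillar genes lie left of 0 and the 4 called FACIT genes lie right of it.

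The cell type markers that could carry these genes did not all move in the same direction. Calls were mixed in the meningeal, fibroblast and cartilage lists. They were all higher in the endothelial and pericyte lists above and all lower among neural progenitor markers. Of 8 meningeal markers 2 were higher and 2 lower in E16.5 brain, and their sum, mostly Crabp2, a retinoic acid binding protein, was 82.4 to 117 TPM against 444.5 to 704 TPM. Of 7 fibroblast and mesenchyme markers tested 4 were higher and 2 lower. Of 6 cartilage markers tested 1 was higher and 2 lower, with Sox9 at 41.7 against 109 TPM on average. Of 6 neural progenitor markers 5 were lower and none higher. The shares over all genes were 32.3% higher and 17.7% lower. What these cells add to the fibrillar and FACIT changes was not tested.

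Genes that make, bind and degrade collagen were also read in this comparison, from lists chosen by their known roles. Of 33 tested genes of collagen synthesis and processing 6 were higher in E16.5 brain and 10 lower, with a median of -0.17. Beside this list and those below, 32.3% of all genes were higher and 17.7% lower. Serpinh1, the collagen chaperone Hsp47, averaged 275 against 491 TPM (-0.83 ± 0.08, adjusted p = 6.5e-05), and P4hb, a subunit of prolyl hydroxylase, 415 against 685 TPM. Adamts2, which trims fibrillar procollagen, was higher at 3.30 against 0.321 TPM. Of 10 collagen receptors 3 were lower and none higher, among them the receptor kinase Ddr1 at 179 against 528 TPM (-1.56 ± 0.07), the endocytic receptor Mrc2 at 14.01 against 51.04 TPM, and Adgrg1 at 220 against 309 TPM. The remaining 7 tested receptors did not pass the test.

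Of 15 basement membrane partners 4 were higher and 5 lower in E16.5 brain, where 32.3% of all genes were higher and 17.7% lower. The laminin chains Lamb2 and Lama1 averaged 35.5 against 106 TPM and 10.02 against 49.44 TPM, and the proteoglycan Hspg2 10.2 against 28.0 TPM. Of 16 matrix partners of fibrils 4 were higher and 6 lower. Tnc, tenascin C, an adhesion-modulating glycoprotein of the brain, had the largest difference of the 3 with the smallest p, at 135 against 4.24 TPM (4.78 ± 0.25, adjusted p = 2.2e-06). Fbln1 averaged 43.9 against 133 TPM and Mfap2 372 against 643 TPM. Of 9 genes of matrix turnover 5 were higher and 3 lower. The membrane collagenase Mmp14 averaged 40.1 against 107 TPM, while the inhibitor Timp2 averaged 195.5 against 60.03 TPM and the gelatinase Mmp9 30.1 against 6.46 TPM.

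Between Anti-G3BP1 and IgG libraries, no collagen gene passed the test for its level in any of the 4 tables. With limma, 0 of 34 tested members were called in the fixed embryo, where 0% of all genes were, 0 of 39 in the libraries labelled fresh-frozen, where 0% were, 0 of 34 in E12.5 brain, where 0% were, and 0 of 38 in E16.5 brain, where 0.0108% were. At an unadjusted p under 0.05 the members numbered 4, 7, 2 and 4 in that order, and the shares of all genes were 11.4%, 12.3%, 13.6% and 9.92%. The smallest adjusted p of a member was 0.375, 0.147, 0.327 and 0.284. Median changes of the members were -0.10, -0.12, 0.01 and -0.12 on the log2 scale, against -0.12, -0.00, -0.15 and -0.02 for all genes.

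The widest gaps between antibody groups were in the libraries labelled fresh-frozen. Col2a1 had 75.7 and 83.5 TPM in the Anti-G3BP1 libraries and 27.2 and 29.4 TPM in the IgG libraries, with 47.4 and 46.5 TPM in the untreated libraries. Its change of 1.46 ± 0.12 had an adjusted p of 0.147. Col1a1 had 7.48 and 5.60 TPM in the Anti-G3BP1 libraries, 23.5 and 27.5 TPM in the IgG libraries and 13.9 and 16.6 TPM in the untreated libraries (-1.82 ± 0.23, adjusted p = 0.151). For both genes the untreated libraries lay between the antibody groups, and no groups overlapped. With 2 libraries per group and genes picked for wide gaps, this is a description only. Neither gene was called. Leaving out the second IgG library moved the adjusted p of Col2a1 to 0.0356, in a fit where the lone IgG library is assumed to vary like the libraries of the other groups. Col22a1, a FACIT collagen of tissue junctions, had 8.48 and 12.4 TPM, 3.42 and 3.38 TPM, and 9.76 and 10.1 TPM (1.36 ± 0.31, adjusted p = 0.252).

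Markers of other cells are set beside these values. Sox9 had 199 and 212 TPM in the Anti-G3BP1 libraries, 69.6 and 88.3 TPM in the IgG libraries and 139 and 113 TPM in the untreated libraries. The summed level of the cartilage list, mostly Sox9, spanned 80.6 to 217 TPM over these 6 libraries. The neural progenitor markers summed to 796 to 1466 TPM. Neither list had a gene that passed the test between Anti-G3BP1 and IgG, and their part in the Col2a1 values was not tested.

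**Figure D4:**
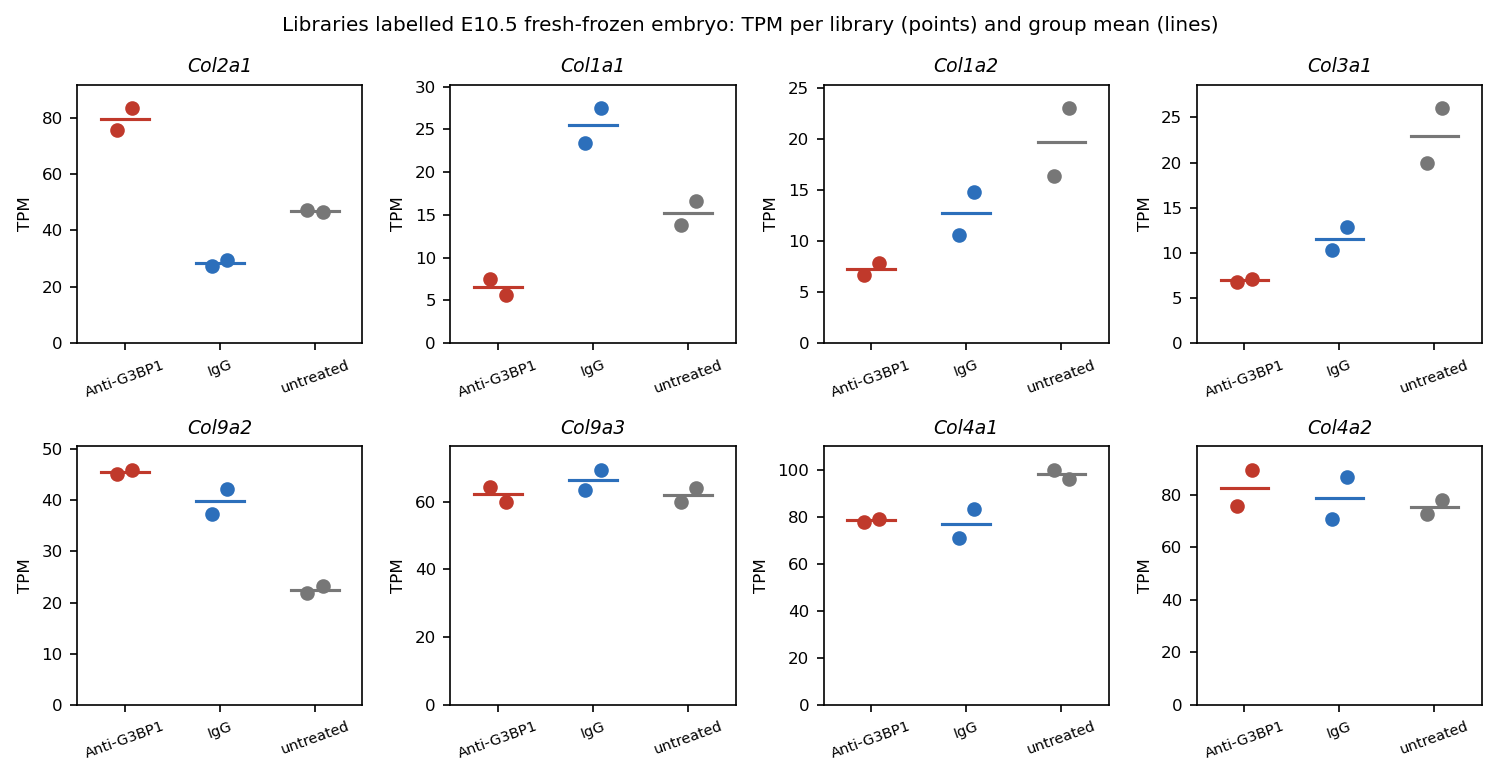
TPM of 8 collagen genes in the 6 libraries labelled fresh-frozen embryo (points; lines are group means, n = 2 each), with Anti-G3BP1, IgG and untreated from left to right; each axis starts at 0. Col2a1 is at 75.7 and 83.5 TPM with Anti-G3BP1 and at 27.2 and 29.4 TPM with IgG, while Col1a1 is lowest with Anti-G3BP1.

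The other tables had smaller differences. In the fixed embryo the 4 members under an unadjusted p of 0.05, Col26a1, Col27a1, Col23a1 and Col9a2, were all lower with Anti-G3BP1, and Col26a1 averaged 26.6 against 34.4 TPM (-0.36 ± 0.10). In E16.5 brain the 4 such members, Col9a2, Col6a1, Col9a3 and Col3a1, were also all lower. Col9a2 averaged 81.7 ± 0.998 against 105 ± 4.99 TPM (-0.36 ± 0.07, adjusted p = 0.284). In E12.5 brain they were Col4a5 and Col4a2, at 6.40 against 17.3 TPM and 55.5 against 76.6 TPM. The 2 E12.5 IgG libraries are unlike in Col4a5, with 22.5 and 12.1 TPM.

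Whether the antibody difference itself varied between tables was tested as an interaction. For Col2a1, that difference was higher in the fresh-frozen libraries than in the fixed embryo by 1.52 ± 0.15 (limma, adjusted p = 0.0278), where 0.384% of all genes passed, and lower in E16.5 brain than in the fresh-frozen libraries, at -1.58 ± 0.14 (adjusted p = 0.0403), where 0.0999% passed. For Col1a1 it was lower in the fresh-frozen libraries than in the fixed embryo, at -1.84 ± 0.20 (adjusted p = 0.0278). No other member passed in any of the 6 pairs of tables. Of all genes, 0.0148% passed between E12.5 brain and the fixed embryo, and 0% in each of the remaining 3 pairs.

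Between IgG and untreated libraries the 2 embryo tables allow a comparison of treated with untreated sections. In the libraries labelled fresh-frozen, 1 of 39 tested members was called higher, where 2.81% of all genes were higher, and none lower, where 3.11% were. It was Col11a2, with 39.9 and 41.1 TPM in the IgG libraries and 21.9 and 21.9 TPM in the untreated libraries (0.86 ± 0.15, adjusted p = 0.0424). The Anti-G3BP1 libraries had 34.1 and 37.9 TPM. The call was lost with a pseudocount of 0.1 (adjusted p = 0.0510), with no filter on low values (0.0562) and with the replicate block (0.0888), and also without any 1 of the 4 libraries compared (adjusted p from 0.0818 to 0.129), fits in which the lone library of a group is assumed to vary like the other groups. Next in order of p were Col2a1, at 28.3 ± 1.54 against 47.0 ± 0.611 TPM (adjusted p = 0.0539), Col9a2, at 39.8 ± 3.49 against 22.5 ± 0.957 TPM (adjusted p = 0.0543), and Col22a1, at 3.40 against 9.92 TPM (adjusted p = 0.0629).

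In the fixed embryo 0 of 33 tested members were called, where 0% of all genes were, and 9 had an unadjusted p under 0.05, of which 8 were higher with IgG, beside 11.1% of all genes. Col15a1 had 12.7 and 13.6 TPM with IgG and 4.64 and 4.003 TPM untreated (1.41 ± 0.22, adjusted p = 0.406). Col11a2 had 9.88 and 9.45 TPM with IgG and 3.996 and 2.96 TPM untreated. Col1a1 was the member lower with IgG, at 324 ± 4.08 against 428 ± 60.2 TPM. The members' median was 0.23, against 0.14 for all genes.

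Editing was read at deposited sites, each with the reads that cover it and those with the edited base. Collagen genes hold 336 sites in 29 members in the fixed embryo table, 153 in 24 members in the fresh-frozen table, 428 in 25 members in E12.5 brain and 456 in 30 members in E16.5 brain. All lie in annotated exons, and the reference base was right at each. With 10 reads or more in every library of the table, 235, 94, 218 and 394 sites stayed, and 64.3%, 79.8%, 78.9% and 74.6% of these lie in the 3′ UTR and the rest in coding sequence. C-to-T sites outnumbered A-to-G sites, by 195 to 40, 55 to 39, 160 to 58 and 258 to 136. Some of the sites that stayed showed no editing at all, namely 1, 1, 162 and 194 of them in the same order. They are counted in these figures and in the covering reads of the shares below. Of 1258 distinct sites 1152 were listed in 1 table only, and 1 site was in all 4 tables.

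At these sites collagen RNA was edited in well under 1% of reads. In the fixed embryo the edited share was 0.265% and 0.334% with Anti-G3BP1, 0.237% and 0.223% with IgG, and 0.235% and 0.481% untreated. The last library had 45 edited of 9348 reads, a 95% Wilson interval of 0.360% to 0.643%. Over all sites of the table the shares were 0.486% and 0.497%, 0.365% and 0.404%, and 0.397% and 0.573% in the same groups. Collagen shares were below those of all sites in each of the 6 libraries. Covering reads per site differed between collagen sites and all sites, and their part in this was not tested. Wilson intervals cover counting error only, since reads copied by PCR are not independent molecules.

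In the libraries labelled fresh-frozen the collagen share was 0.552% and 0.887% with Anti-G3BP1, 0.627% and 0.827% with IgG and 0.255% and 0.363% untreated. The 95% Wilson intervals of the 4 antibody libraries, from 0.403% to 0.757% in the first Anti-G3BP1 library to 0.613% to 1.12% in the second IgG library, overlap. Over all sites the shares were 1.22% and 1.24%, 0.636% and 0.659%, and 0.375% and 0.352%. So the antibody groups lay apart over all sites and overlapped over collagen sites. Split by kind, the collagen share at A-to-G sites was 0.551% and 1.04% with Anti-G3BP1, 0.942% and 1.67% with IgG and 0.245% and 0.125% untreated, and at C-to-T sites it was 0.553% and 0.792%, 0.443% and 0.316%, and 0.262% and 0.518%.

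In the brain, the collagen share in E12.5 was 0.270% and 0.2505% with Anti-G3BP1 and 0.208% and 0.129% with IgG, and over all sites 0.428% and 0.376% with Anti-G3BP1 and 0.198% and 0.213% with IgG. In E16.5 brain it was 0.317% and 0.265% with Anti-G3BP1 and 0.186% and 0.221% with IgG, and over all sites 0.371% and 0.342% and 0.215% and 0.225%. Both Anti-G3BP1 libraries lay above both IgG libraries in each brain table, for collagen as for all sites. The collagen share of an Anti-G3BP1 library was below that of all sites in the 8 such libraries of the 4 tables. Covering reads per site differed too. In the fixed embryo these libraries averaged 156 and 117 at collagen sites against 119 and 93.5 over all sites. Those labelled fresh-frozen had 73.2 and 114 against 65.2 and 93.9, and those of E12.5 brain 68.0 and 78.7 against 55.2 and 64.8. E16.5 brain went the other way, at 79.4 and 134 against 110 and 184. The part of these depths in the shares was not tested.

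**Figure D5:**
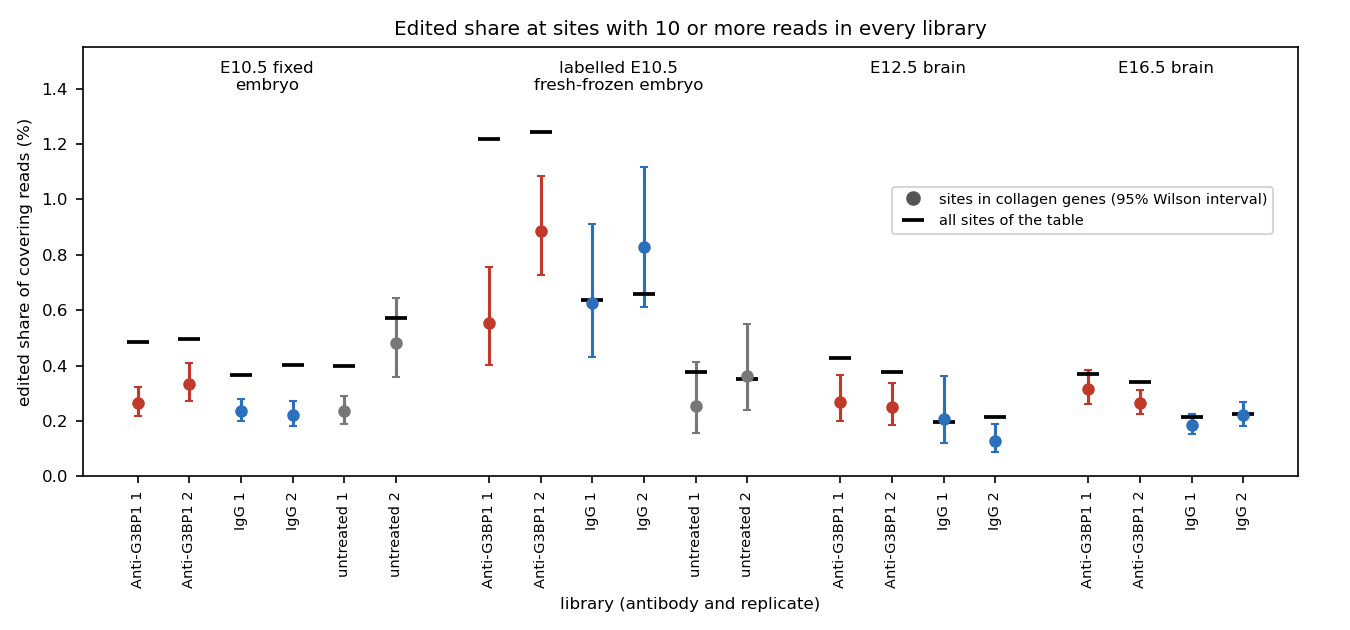
Edited share in percent of reads at collagen sites in each library (points with 95% Wilson intervals; colours give the antibody group), with a black dash for all sites of the same table. With Anti-G3BP1 the dash lies above the point in all 8 libraries, and in the fresh-frozen libraries the collagen intervals of Anti-G3BP1 and IgG overlap. Points and dashes differ in covering reads per site, whose part in the shares was not tested.

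Per gene, no collagen was called in any editing comparison. With the quasi-binomial model, 0 of 13 tested members were called between Anti-G3BP1 and IgG in the fixed embryo, where 0.0179% of all genes were, 0 of 7 in the fresh-frozen libraries, where 1.43% were, 0 of 10 in E12.5 brain, where 0% were, and 0 of 22 in E16.5 brain, where 6.65% were. At an unadjusted p under 0.05 there were 2, 0, 0 and 0 of these members. Of all genes there were 151 (2.70%), 1103 (14.1%), 171 (3.07%) and 2126 (18.1%). With limma on the empirical logit 0 members were called in each. The median log2 odds ratio of the members was -0.11, 0.77, 0.75 and 0.66, against 0.31, 0.91, 0.61 and 0.65 for all genes. Between IgG and untreated libraries 0 of 13 members were called in the fixed embryo, where 0% of all genes were. In the fresh-frozen libraries 0 of 7 were, where 0% of all genes were. At an unadjusted p under 0.05 there were 0 and 1 members, where 1.84% and 6.89% of all genes were. With limma 0 members were called in either. A member had a median of 2 to 5 edited reads per library, so small differences were not detectable at this depth.

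Col4a1 had edited reads in every library of the 4 tables. In the fixed embryo it had 19 and 28 edited reads with Anti-G3BP1, 20 and 10 with IgG and 12 and 4 untreated, or 0.282% and 0.509%, 0.167% and 0.122%, and 0.161% and 0.229% of covering reads. Both Anti-G3BP1 libraries lay above the other 4 (log2 odds ratio over IgG 1.36 ± 0.46, adjusted p = 0.907). In the fresh-frozen libraries it had 19 and 37 edited reads with Anti-G3BP1, 10 and 12 with IgG and 7 and 7 untreated, or 1.13% and 1.53%, 0.732% and 0.792%, and 0.295% and 0.325%. The 3 groups did not overlap there (0.83 ± 0.50 for Anti-G3BP1 over IgG, adjusted p = 0.461, and 1.29 ± 0.58 for IgG over untreated, adjusted p = 0.694). Of all genes tested there, 79.2% and 70.9% were above 0 in the same order, with medians of 0.91 and 0.72. The direction is thus that of most genes. In E16.5 brain, where 71407 reads covered its sites, it had 0.236% and 0.178% with Anti-G3BP1 and 0.122% and 0.170% with IgG (0.49 ± 0.35, adjusted p = 0.471). In E12.5 brain it had 8 and 11 edited reads with Anti-G3BP1 and 5 and 5 with IgG, and its groups overlapped in share.

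Its partner chain Col4a2 had no common order of the groups. Edited reads were 1 and 8 with Anti-G3BP1 and 14 and 5 with IgG in the fixed embryo, 4 and 6 against 8 and 4 in the fresh-frozen libraries, 3 and 5 against 0 and 2 in E12.5 brain, and 9 and 19 against 15 and 18 in E16.5 brain. By share, the groups overlapped in the fixed embryo and in E16.5 brain, Anti-G3BP1 lay below IgG in the fresh-frozen libraries and above it in E12.5 brain. Among fibrillar genes, Col1a2 had 19 and 4 edited reads with Anti-G3BP1 and 4 and 2 with IgG in the fixed embryo (2.55 ± 0.92, adjusted p = 0.907), and 0 and 9 against 6 and 6 in E16.5 brain. Col1a1 had 8 and 2 against 17 and 8 in the fixed embryo and 5 and 5 against 2 and 2 in E12.5 brain. In E16.5 brain Col1a1 had 0 and 0 against 8 and 6. Col2a1 had 4 and 7 against 16 and 5 in the fixed embryo, 3 and 18 against 3 and 7 in the fresh-frozen libraries, and 12 and 14 against 3 and 14 in E12.5 brain. None of these genes kept 1 order of the groups over all tables.

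Among the remaining covered members, Col18a1 had 18 and 27 edited reads with Anti-G3BP1 and 32 and 27 with IgG in the fixed embryo (0.41 ± 0.38), while it had 4 and 6 against 0 and 0 in the fresh-frozen libraries and 4 and 5 against 0 and 0 in E12.5 brain. Col9a3 had 2 and 8 against 0 and 4 in the fresh-frozen libraries and 4 and 7 against 7 and 4 in E16.5 brain. Col9a2 had 3 and 7 against 4 and 0 in E16.5 brain. Col26a1 had 3 and 10 against 0 and 0 there, and Col25a1, a membrane collagen of neurons, had 12 and 12 against 8 and 6. These counts are of a few reads per library, and covering reads differed between libraries, so they are not shares.

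Single sites show where the edited reads lie. The sites below are those with at least 2 edited reads in each Anti-G3BP1 library and none in any other library of a table, each with 10 bases on either side in the direction of the transcript (GENCODE transcripts on GRCm38), and the edited base in capitals. All 6 lie in the 3′ UTR, in the last exon of the transcript.
Col4a1, A-to-G, chr8:11199397, minus strand: cccagatgtgAgtgctgtcca
Col9a3, C-to-T, chr2:180621772, plus strand: ctatgatagaCtaccaataaa
Col23a1, A-to-G, chr11:51583653, plus strand: ttgccttgaaAggacagatgc
Col6a2, A-to-G, chr10:76595984, minus strand: caagcattggAggaccccaga
Col25a1, A-to-G, chr3:130599533, plus strand: cactgtacatAtggcaaaacc
Col4a1, C-to-T, chr8:11198778, minus strand: catcctgcatCctggcaggca
The Col4a1 site at 11199397 had 5 of 62 and 2 of 53 reads edited with Anti-G3BP1 in the fresh-frozen libraries, against 0 of 35 and 0 of 45 with IgG and 0 of 86 and 0 of 102 untreated. In E12.5 brain the same site had 0 of 20 and 4 of 39 against 0 of 13 and 0 of 63. Over both tables that is 11 of 174 reads with Anti-G3BP1 and 0 of 344 in the other libraries. The sites were chosen on these reads, so no test is given and the 0 sets no limit on the share there.

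The Col23a1 site had 2 of 5 and 4 of 20 reads edited with Anti-G3BP1 in the fresh-frozen libraries. Over the 3 tables that list it, 11 of 97 reads were edited with Anti-G3BP1, in 4 of 6 libraries. In the other 8 libraries 0 of 90 were. With under 10 reads in some libraries, it is not among the sites of the shares and tests above. The Col9a3 site, in exon 33 of 33, had 2 of 69 and 2 of 84 with Anti-G3BP1 and none of 51 to 61 reads in each of the other 4 fresh-frozen libraries. The Col6a2 site had 2 of 40 and 2 of 18 in E12.5 brain against 0 of 2 and 0 of 19 with IgG, and is left out above for the same reason. In E16.5 brain the Col25a1 site had 2 of 82 and 3 of 102 against 0 of 110 and 0 of 116. The Col4a1 site at 11198778 had 2 of 234 and 2 of 457 against 0 of 455 and 0 of 324 there. In E12.5 brain that Col4a1 site went the other way, with 0 of 75 and 0 of 105 against 1 of 36 and 0 of 150. Edited reads numbered 2 to 5 at these 6 sites in the Anti-G3BP1 libraries of the table that chose them.

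The sites with the most edited reads were not all of this kind, and several rest on 1 library. They are shown because they hold the highest edited counts, 1 or 2 of the first 5 per table, and but for that of Col5a2 they lie in the 3′ UTR.
Col4a1, A-to-G, chr8:11198534, minus strand: ttgtaataaaActatttgtat
Col5a1, C-to-T, chr2:28038846, plus strand: acaagttctaCtcttgccaaa
Col5a2, A-to-G, chr1:45376129, minus strand, coding sequence: ttggcaatgcAgaccaggaat
Col25a1, A-to-G, chr3:130599639, plus strand: cactgaatcaAaggcctgcga
Col4a1, C-to-T, chr8:11198838, minus strand: taaccacagaCtgaatgactg
The Col4a1 site at 11198534 had 0 of 29 and 10 of 62 reads edited with Anti-G3BP1 in the fresh-frozen libraries and none in the other 4. The Col5a1 site had 0 of 95 and 6 of 85 with Anti-G3BP1 in the fixed embryo and none in the other 4. In both cases all edited reads came from the second Anti-G3BP1 library. The Col5a2 site had 4 of 39 and 0 of 59 with Anti-G3BP1 in E12.5 brain against 2 of 16 and 0 of 59 with IgG, and over the 3 tables that list it 14 of 269 against 2 of 264 reads.

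The Col25a1 site had 1 of 69 and 7 of 75 with Anti-G3BP1 in E16.5 brain against 2 of 96 and 2 of 86 with IgG, and its line lists a second changed base beside G. The Col4a1 site at 11198838 had 1 of 244 and 4 of 427 in E16.5 brain against 0 of 433 and 2 of 317, and 3 of 81 and 0 of 101 in E12.5 brain against 0 of 24 and 2 of 129. Some sites ran the other way. The C-to-T site of Col4a2 at 11449067 on chromosome 8 had 0 of 150 and 0 of 256 with Anti-G3BP1 in the fresh-frozen libraries, 3 of 111 and 4 of 158 with IgG and none untreated. The only collagen site listed in all 4 tables, an A-to-G site of Col4a1 at 11199344, had 4 of 542 reads with Anti-G3BP1 and 4 of 1073 in the other libraries.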

How the data were processed

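The members and the gene lists were chosen with earlier results of these data known. The deposited TPM tables (TPM by the authors) and the deposited editing tables were used; the latter hold, per the file headers, counts of covering and edited reads per site and library. The submitters' processing notes name the aligners HISAT2 2.2.1 and BWA 0.7.17, featureCounts 2.0.1 of Subread, and GATK 4.5.0.0 with Picard 3.1.1, on mm10 or GRCm38; which step used which, and how sites were called, is not given in the sources used here. Edited counts of 1 were rarer than counts of 2 in each of the 4 tables at collagen sites (47 against 317, 22 against 145, 39 against 46 and 62 against 178), so edited shares may be too low.

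TPM was tested with limma 3.58.1 in R 4.3.3 (eBayes, trend) as log2(TPM + 1), where a gene reached 1 TPM in at least 2 libraries of a comparison. A fold change on that scale understates the change of low genes. For the brain stages TPM was rescaled over genes shared by both tables, with the antibody as a covariate. Edited reads were summed per gene over sites with 10 reads or more in every library of the table. A quasi-binomial model was fitted where a gene had 50 such reads in each library, with 0.25 added to its edited and to its unedited reads. Its dispersion was moderated with squeezeVar and kept at 1 or more. All tests are two-sided with Benjamini-Hochberg adjustment over all genes. Both models were run on simulated data, limma with the group sizes of the stage comparison. Editing changes were planted only in genes with many edited reads. The simulation therefore does not show what limma detects with 2 libraries per group. Nor does it show what the editing model detects in genes with few edited reads. The quasi-binomial adjusted p is a model p across all genes, as is that of limma. Shares were computed with Python 3.11.15 and pandas 2.3.3.

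The text names the 8 members with the highest mean TPM of each table, called members, the 5 tested members with most covering reads per editing comparison, the 5 sites with most edited reads per table and sites edited in Anti-G3BP1 libraries alone, of which it prints a selection. From each other list of the stage comparison it takes the 3 genes with the smallest p. Members just outside the threshold, those with an unadjusted p under 0.05, and other counts of edited reads were named after their values were seen. Alternatives were another pseudocount, other filters and scalings, a replicate block, other minimums of reads, C-to-T or A-to-G sites alone, limma on the empirical logit and leaving out each library.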

Additional observations from a re-analysis of the deposited data

Results flagged for a closer look

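Of 32 groups of 4 or 6 libraries tested for the leading members of each table, 3 held a library that stood apart from the rest, where chance gives about 1 in 20. Col5a1 was lowest in the second untreated library of the fixed embryo, at 55.6 TPM, against 70.9 to 78.8 TPM in the other 5. Col1a1 was lowest in the first IgG library of E12.5 brain, at 72.1 TPM, against 102 to 105 TPM in the other 3. Col11a2 was lowest in the second Anti-G3BP1 library of E16.5 brain, at 31.3 TPM, against 35.8 to 36.5 TPM in the other 3.

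The antibody difference of 2 members varied between tables in a test of the interaction. For Col2a1 it was higher by 1.52 in the libraries labelled fresh-frozen than in the fixed embryo, and by -1.58 in E16.5 brain relative to the fresh-frozen libraries. For Col1a1 it was -1.84 in the fresh-frozen libraries relative to the fixed embryo.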

How the results depend on the processing

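Of the 18 stage calls, 14 were made under all 15 settings, and leaving out each library gave 17 to 21 called members. Col8a2, Col6a5 and Col14a1 were lost only with a 5 TPM filter, under which they could not be tested. The summed level of the members became 1868.8 TPM (fixed embryo) and 1092.8 TPM (E12.5 brain) once mitochondrial and globin genes were removed. For Anti-G3BP1 over IgG in the fresh-frozen libraries, leaving out each library gave 0 to 1 called member. For IgG over untreated there, the 1 call became 0 with a pseudocount of 0.1, 0 with no filter, 0 with the replicate block and 5 with a 5 TPM filter (3 higher and 2 lower), and leaving out each library gave 0 to 1, the 1 being Col4a5, lower without the first IgG library. Counts of called members in the other comparisons did not leave 0 under any setting run. Same-numbered libraries did not deviate together (r from -0.04 to 0.02), so no pairing was seen. This cannot show whether they share an animal or a section, which the labels do not say. With the replicate block the stage call count stayed at 18.

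Editing changes of single members, none of them called, had the other sign in 6 cases when sites or libraries were left out. The log2 odds ratio was -0.10 to 0.88 for Col18a1 in the fixed embryo when each library was left out, the lowest without the second Anti-G3BP1 library, and -0.50 to 1.52 for Col4a1 in E12.5 brain, the lowest without the second IgG library. With C-to-T sites alone it was 0.30 for Col2a1 (Anti-G3BP1 over IgG), -0.016 for Col4a1 and -0.75 for Col2a1 (IgG over untreated) in the fresh-frozen libraries and -1.76 for Col9a2 in E16.5 brain. The cause was not tested. Subtracting the median change of all genes, which shifts every gene alike, put Col4a1 at -0.085 in the fresh-frozen libraries and -0.16 in E16.5 brain, by construction of that scaling. For the 17 other members and comparisons, whose change was smaller than its SE, 55 of 237 alternatives had the other sign.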
